A study of Mus musculus with 18 samples.

Results

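The genes of the heat shock and unfolded protein response described here are 36 genes chosen by name and not by any measured value. All 36 were measured in both value tables: by 83 of 45101 probe sets, and among 20792 named genes, in the table of 10 arrays, and by 75 of 22690 probe sets, and among 13231 named genes, in the table of 8 arrays. By role they comprise 15 chaperones and folding enzymes of the endoplasmic reticulum (ER), 3 proteins of ER-associated degradation, 5 transcription factors of the unfolded protein response, 10 cytosolic heat shock proteins, 2 mitochondrial chaperonins and Hsf1, the heat shock transcription factor.

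Gene expression was measured with Affymetrix arrays in mouse CD4 T cells that were sorted on GFP, from mice aged 6 to 8 weeks. In the table of 10 arrays, 5 arrays of Treg cells (Foxp3-positive, regulatory T cells, titled aTreg) and 5 of Teff cells (Foxp3-negative) were made from Foxp3DTR mice, all treated with DT, with spleen and lymph nodes as the source. In this strain cells that express Foxp3 carry the diphtheria toxin receptor, so that DT, diphtheria toxin, kills Treg cells; the labels do not say how long after treatment the cells were taken, and no group of Foxp3DTR mice without DT was analysed here. In the table of 8 arrays, Treg and Teff cells came from Foxp3GFP mice, in which cells that express Foxp3 carry green fluorescent protein, with 2 arrays each from spleen and lymph nodes (lymphoid) and 2 arrays each from B16 tumours (B16 is a mouse melanoma line). Values are RMA log2 expression values, and the 2 tables were normalized separately, so only differences made within a table are set side by side. No label says that replicates are separate animals, so p-values measure only the spread between these samples, and the small number of arrays limits the precision.

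The sorted cells carried T cell transcripts: the mean log2 level of 7 T cell markers was between 11.03 and 11.58 on all 18 arrays. Foxp3 was low under both labels in DT-treated mice, at 3.11 to 3.43 on Treg and 2.97 to 3.40 on Teff arrays. In tumours it was low too, at 3.20 and 3.31 on Treg and 3.18 and 3.13 on Teff arrays. On lymphoid arrays it read 9.95 and 9.99 in Treg and 3.19 and 3.05 in Teff. Why its probe set did not separate the labels elsewhere was not tested. Il2ra, Ctla4 and Tnfrsf18 did follow the label in all 3 settings, and "Treg" stands for that label throughout. Within the table of 8 arrays the tumour arrays read at most 2.62 for Xist and at least 9.91 for Ddx3y, and the lymphoid arrays at least 10.57 and at most 2.81, so that tissue and sex of the mice cannot be told apart. Of 6 melanoma markers 5, and of 7 stromal and endothelial markers 6, were higher on tumour arrays in both cell labels. Among the 10 arrays, Treg array 4, Teff array 4 and Teff array 5 correlated less with their own group (mean r 0.986, 0.982 and 0.982) than the others (at least 0.9903).

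Proteins that fold in the ER are held by the chaperone BiP (Hspa5) and its partners, and when unfolded protein builds up, the membrane sensors IRE1, PERK and ATF6 start the unfolded protein response. IRE1 splices the RNA of Xbp1, PERK raises translation of Atf4, and ATF6 is cut free from the membrane, and the resulting factors raise transcription of chaperones, folding enzymes and degradation factors. In the cytosol and nucleus, Hsf1 raises transcription of the heat shock proteins when proteins unfold. In T cells both systems are known to respond to activation, to secretion and to handling of the cells. The arrays measured RNA only, not splicing of Xbp1, translation of Atf4 or cleavage of Atf6.

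The promoters of the members were searched first, because the ER and heat shock systems each have a known DNA element. Windows from 250 bases before to 50 after the annotated start (RefSeq, GRCm38.p6) were at hand for 29 of the 36 members. The ER stress response element (ERSE) was searched as CCAAT, 9 bases of any kind and CCACG on both strands. It was present in 7 of the 29 members (24.14%), Calr, Canx, Creld2, Dnajc3, Hsp90b1, Hspa5 and Pdia6, and in 37 of all 27025 genes with a window (0.137%). A heat shock element, searched as GAA, 2 bases, TTC, 2 bases and GAA or its reverse complement, was present in Hspd1, Hspe1 and Hsph1, 3 of the 29 members (10.34%) and 179 of all genes (0.662%). The motif TGACGTGG (the unfolded protein response element, UPRE), was in none of the 29 windows and in 193 of all genes (0.714%). These matches are letters in a window of fixed length and not measured binding.
The windows of 4 ERSE members, shown because these 4 moved differently between the groups, and that of Hspe1, shown because it was lower in 3 comparisons, follow 5′ to 3′ on the strand of the gene, with the ERSE (or, for Hspe1, the heat shock element) in capitals.
Hspa5 (chr2:34771840-34772139, plus strand): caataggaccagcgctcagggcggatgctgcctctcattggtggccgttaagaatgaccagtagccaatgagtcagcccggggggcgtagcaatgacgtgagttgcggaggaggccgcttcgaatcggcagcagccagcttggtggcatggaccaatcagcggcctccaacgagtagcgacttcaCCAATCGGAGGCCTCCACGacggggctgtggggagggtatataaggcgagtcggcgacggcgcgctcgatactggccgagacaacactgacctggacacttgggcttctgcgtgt
Hsp90b1 (chr10:86705395-86705694, minus strand): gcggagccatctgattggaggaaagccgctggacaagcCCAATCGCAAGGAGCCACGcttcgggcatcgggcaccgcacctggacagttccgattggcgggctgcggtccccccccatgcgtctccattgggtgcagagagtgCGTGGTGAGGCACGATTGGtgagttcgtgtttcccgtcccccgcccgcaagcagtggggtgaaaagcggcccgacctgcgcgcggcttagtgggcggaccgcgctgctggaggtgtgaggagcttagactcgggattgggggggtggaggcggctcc
Creld2 (chr15:88819396-88819695, plus strand): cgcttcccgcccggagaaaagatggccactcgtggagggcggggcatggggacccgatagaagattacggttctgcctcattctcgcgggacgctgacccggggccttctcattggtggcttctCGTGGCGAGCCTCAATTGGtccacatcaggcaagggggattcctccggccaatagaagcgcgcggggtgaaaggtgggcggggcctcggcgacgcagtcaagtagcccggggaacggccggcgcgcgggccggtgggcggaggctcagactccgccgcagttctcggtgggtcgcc
Dnajc3 (chr14:118937682-118937981, plus strand): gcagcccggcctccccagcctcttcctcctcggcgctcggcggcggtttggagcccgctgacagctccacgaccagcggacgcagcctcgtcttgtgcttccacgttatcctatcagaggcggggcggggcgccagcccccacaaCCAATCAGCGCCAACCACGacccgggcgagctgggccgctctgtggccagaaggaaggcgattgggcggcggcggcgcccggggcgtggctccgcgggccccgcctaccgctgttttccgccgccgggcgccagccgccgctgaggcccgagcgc
Hspe1 (chr1:55087898-55088197, plus strand): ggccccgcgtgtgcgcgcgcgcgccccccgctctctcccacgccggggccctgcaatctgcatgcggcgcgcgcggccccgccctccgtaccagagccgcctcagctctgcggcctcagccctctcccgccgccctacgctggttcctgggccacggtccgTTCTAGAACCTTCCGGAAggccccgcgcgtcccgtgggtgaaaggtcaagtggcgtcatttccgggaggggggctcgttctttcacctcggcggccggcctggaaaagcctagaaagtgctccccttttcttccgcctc
The ERSE begins 65 bases before the annotated start in Hspa5, 212 and 107 bases before it in Hsp90b1, 126 in Creld2 and 105 in Dnajc3. In Hspe1 the 2 overlapping heat shock matches begin 89 and 84 bases before the start. Hspe1 and Hspd1 lie head to head on chromosome 1, and their windows share 285 bases, so both genes hold the same element. The windows of Hspa1a and Hspa1b, neighbouring genes for inducible Hsp70, were identical at 296 of 300 bases; the transcripts are near-identical copies too, so how their signal divides between the genes is uncertain.

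In DT-treated mice, 5 of 15 ER chaperones and folding enzymes and Edem1 were modestly higher in Treg than in Teff arrays. None of the 10 cytosolic heat shock proteins passed the test in the main fit, which did not take replicate numbers as blocks. limma called 6 of the 36 members higher (16.7%) and 1 lower (2.78%) at an adjusted p under 0.05, beside 5.96% of all genes called higher and 4.56% called lower. All genes include many dim ones. Among genes with a mean at or above the median gene, tested alone, 6 of 34 members and 1139 of 10396 genes were higher, and 1 and 843 were lower. The median difference of the members was 0.10, and that of all genes 0.03. None of the 15 ER chaperones and folding enzymes was called lower, 10 did not pass the test, and their median difference was 0.37.
Edem1, a lectin that passes misfolded glycoproteins on to degradation, read 9.73, 9.70, 9.69, 9.41 and 9.71 on Treg arrays 1 to 5 and 9.01, 9.27, 9.32, 8.91 and 9.23 on Teff arrays 1 to 5. Every Treg array was above every Teff array, and the difference was 0.50 (SE 0.113, adjusted p = 0.0115, a fold of 1.42). A further probe set of Edem1 gave -0.04 and no call.
Sdf2l1, a partner of the ER co-chaperone Dnajb11, read 9.11, 8.95, 9.38, 9.18 and 9.14 in Treg and 8.19, 8.31, 8.90, 8.19 and 8.94 in Teff arrays. The groups did not overlap, although Teff arrays 3 and 5 lay close under the lowest Treg array, and the difference of 0.65 (SE 0.166, adjusted p = 0.0244) was the highest among the members.
Pdia4, a protein disulfide isomerase, read 8.78, 8.85, 8.86, 9.05 and 8.77 against 8.33, 8.28, 8.55, 8.29 and 8.67 in Teff, again without overlap (0.44, SE 0.109, adjusted p = 0.0204). Dnajb11, which hands unfolded chains to BiP, read 9.97, 9.86, 9.96, 10.11 and 9.80 against 9.37, 9.43, 9.81, 9.58 and 9.48 (0.40, SE 0.109, adjusted p = 0.0309). Here Teff array 3 lay within the range of the Treg arrays. Manf, an ER-resident factor that can be secreted, and Creld2, another ER stress-inducible protein, were higher by 0.44 (adjusted p = 0.0408) and 0.45 (adjusted p = 0.0431), each with an overlap of the groups.
Hspa5 itself, which carries the ERSE shown above, had a difference of -0.10 (adjusted p = 0.81), and Dnajc3, another ERSE gene and an inhibitor of the kinase PERK, -0.36 (adjusted p = 0.32). Ddit3, the gene of the pro-apoptotic factor CHOP, was the 1 member called lower. It read 7.60, 7.62, 7.35, 7.59 and 7.50 on the Treg arrays and 7.90, 7.95, 8.07, 7.80 and 8.04 on the Teff arrays, with no overlap and a difference of -0.42 (SE 0.0976, adjusted p = 0.0139). Xbp1, Atf4, Atf6 and Atf3 gave differences between -0.11 and 0.13 and no call, and Atf3 was below the median gene on all 10 arrays.

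**Figure D1:**
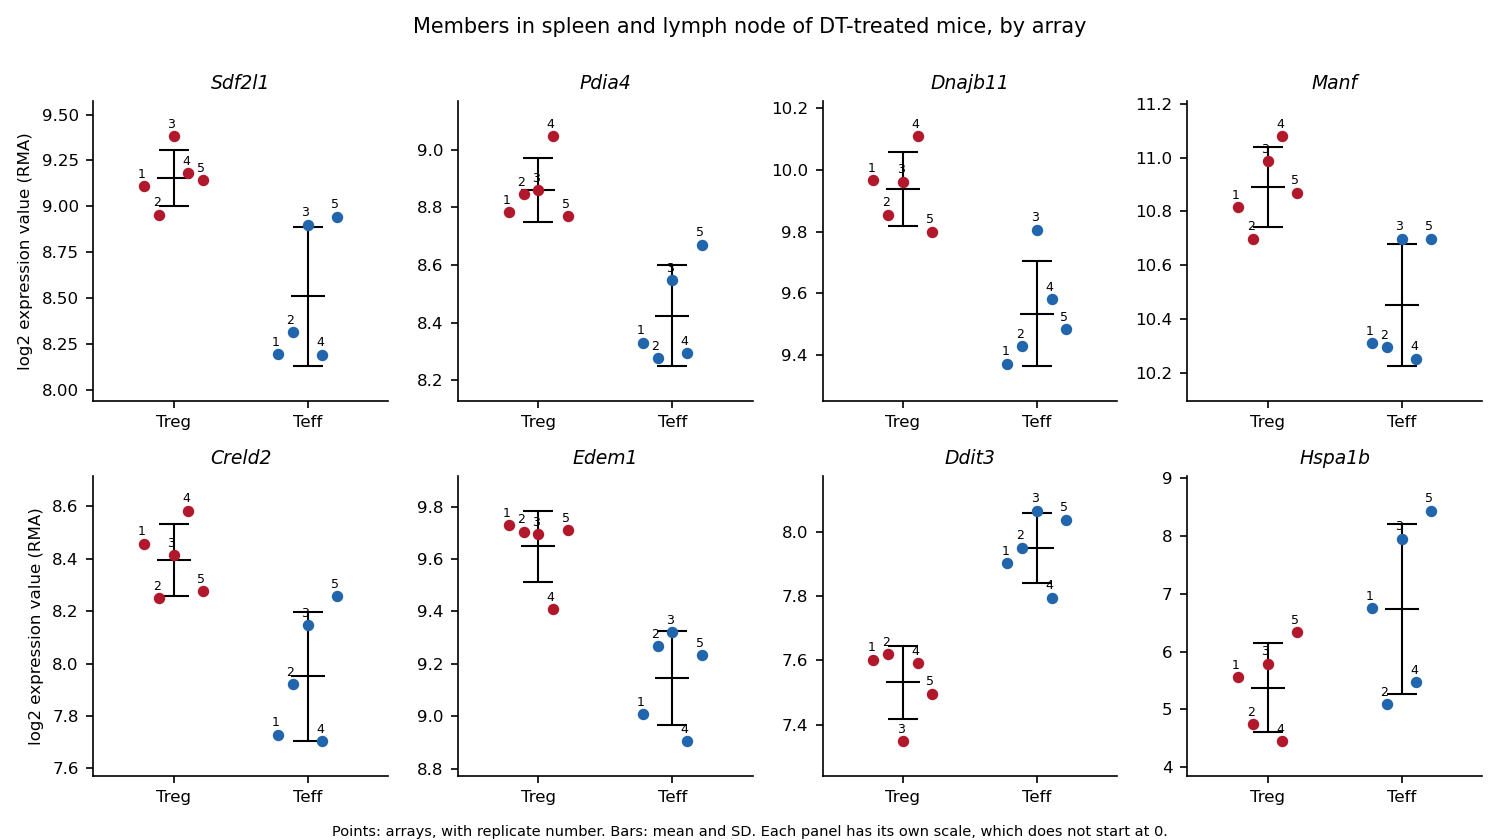
RMA log2 expression values of the 7 members called between Treg and Teff arrays of DT-treated mice, and of Hspa1b, with 5 arrays a group (points, numbered by replicate) and the mean and SD (bars). Edem1, Pdia4, Sdf2l1 and Ddit3 do not overlap between the groups, while Hspa1b spreads from 5.09 to 8.44 over the Teff arrays.

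The highest spread in DT-treated mice was that of the inducible Hsp70 genes. Hspa1b read 5.56, 4.74, 5.79, 4.45 and 6.34 on the Treg arrays and 6.75, 5.09, 7.95, 5.47 and 8.44 on the Teff arrays. Teff arrays 3 and 5 were the highest and the groups overlapped. The difference of -1.36 (SE 0.596, adjusted p = 0.207) was not called, nor were those of its further probe sets, at -1.45 and -1.21. In every same-numbered pair, however, the Treg array read lower. With replicate numbers as blocks in the limma fit, Hspa1b was called lower (adjusted p = 0.00187). Hspa1a read 2.71 to 3.56 on Treg and 2.93 to 4.97 on Teff arrays, with array 5 the highest in both groups. Its difference was -0.67 (adjusted p = 0.28), and it too was called lower with the blocks (adjusted p = 0.0201). The other 8 cytosolic heat shock proteins had differences between -0.22 (Dnajb1) and 0.38 (Hsp90aa1), and none was called without the blocks. With them Hsp90aa1 was called higher (adjusted p = 0.037).

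The call of Edem1 and that of Ddit3 held whichever of the 10 arrays was left out, but both ended with the mean of all probe sets of a gene in place of 1 probe set, and that of Ddit3 also with a robust trend in the spread. The count of 6 members called higher fell to 2 without Treg array 1, to 1 without Treg array 3, to 3 without Treg array 4 or Treg array 5, and to 1 without Teff array 1 or Teff array 2. Without the 3 arrays that stand apart, 6 members were higher (5 of them as before, with Herpud1 in place of Dnajb11) and 3 lower, with Dnajc3 at -0.62 (adjusted p = 0.00374) and Dnajb9 at -0.37 (adjusted p = 0.0472) beside Ddit3.
Of the wider pathway, ATF4 and CHOP target genes gave 6 calls among 28, all of them higher in Treg arrays: Cebpb, a transcription factor, by 1.44, Phgdh by 0.73 and Psat1 by 0.64, both enzymes of serine synthesis. The mean level of 24 cell cycle genes moved with these results, from 9.36 to 9.82 on Treg and from 8.03 to 8.83 on Teff arrays, with 21 of the 24 higher in Treg. Of 11 plasmacytoid dendritic cell markers 5 were lower and 2 higher in Treg, with mean levels of 5.74 to 5.87 and 5.93 to 6.80. The part of either list in the member calls was not tested. Of 24 other ER folding enzymes and chaperones 2 were higher, Fkbp2 by 0.77 and Cnpy2 by 0.56, and none was lower.

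In lymphoid organs of Foxp3GFP mice, few members differed between Treg and Teff arrays. Of the 36, 2 were called higher (5.56%) and 2 lower (5.56%), beside 7.44% and 6.40% of all genes, so the share of members called was no higher than that of all genes. Their median difference was -0.03, and that of all genes 0.00.
Hspb1, a small heat shock protein, read 7.89 and 7.85 on the Treg arrays and 6.58 and 6.66 on the Teff arrays (difference 1.25, SE 0.258, adjusted p = 0.0143, a fold of 2.38). This was the highest positive difference of a member in the 5 comparisons of groups. A further probe set of Hspb1 gave 1.10 (adjusted p = 0.010), while 2 dimmer probe sets, with mean levels of 4.54 and 4.20 over the 8 arrays, gave 0.02 and 0.16 and no call. In DT-treated mice the difference of Hspb1 was 0.08 (adjusted p = 0.80).
Edem1 was higher here too, at 10.13 and 10.13 in Treg against 9.80 and 9.68 in Teff (0.39, SE 0.0863, adjusted p = 0.0204), so it was the member called higher in both lymphoid settings. Its representative probe set differed between the tables, so the calls in the 2 lymphoid settings come from different probe sets. The one used here was the further probe set given above for DT-treated mice, where it had the opposite sign and no call. The one used in DT-treated mice gave 0.39 here as well. In the tumour it gave 0.68 (adjusted p = 0.000957), where the representative gave 0.21 and no call.
Dnajc3 read 9.58 and 9.48 on the Treg arrays, below 10.23 and 10.25 in Teff (-0.71, SE 0.130, adjusted p = 0.00807). Atf4, the factor translated after PERK signalling, read 10.75 and 10.71 against 11.06 and 11.03 (-0.32, SE 0.0826, adjusted p = 0.0374). Both separated Treg from Teff arrays by more than the gap between replicates. Hspa5 was at 11.57 and 11.68 in Treg and 11.65 and 11.61 in Teff, with no call.
Without any 1 of the 4 arrays (then 1 array of a group is taken to vary like the others), no member was called higher and 1 or 0 lower: 1 without Teff array 1 or Treg array 1, and 0 without Teff array 2 or Treg array 2. Plasmacytoid dendritic cell markers also differed, with 6 of 10 lower in Treg and mean levels of 6.93 and 7.17 on Treg against 8.00 and 8.09 on Teff arrays; their part was not tested. In the further list of UPR sensors and related genes, Eif2ak2 was higher by 0.94. It encodes the kinase PKR, which is not among the sensors named above. Wfs1, an ER membrane protein, and Eif2ak3, which encodes PERK, were lower, at -0.47 and -0.39.

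**Figure D2:**
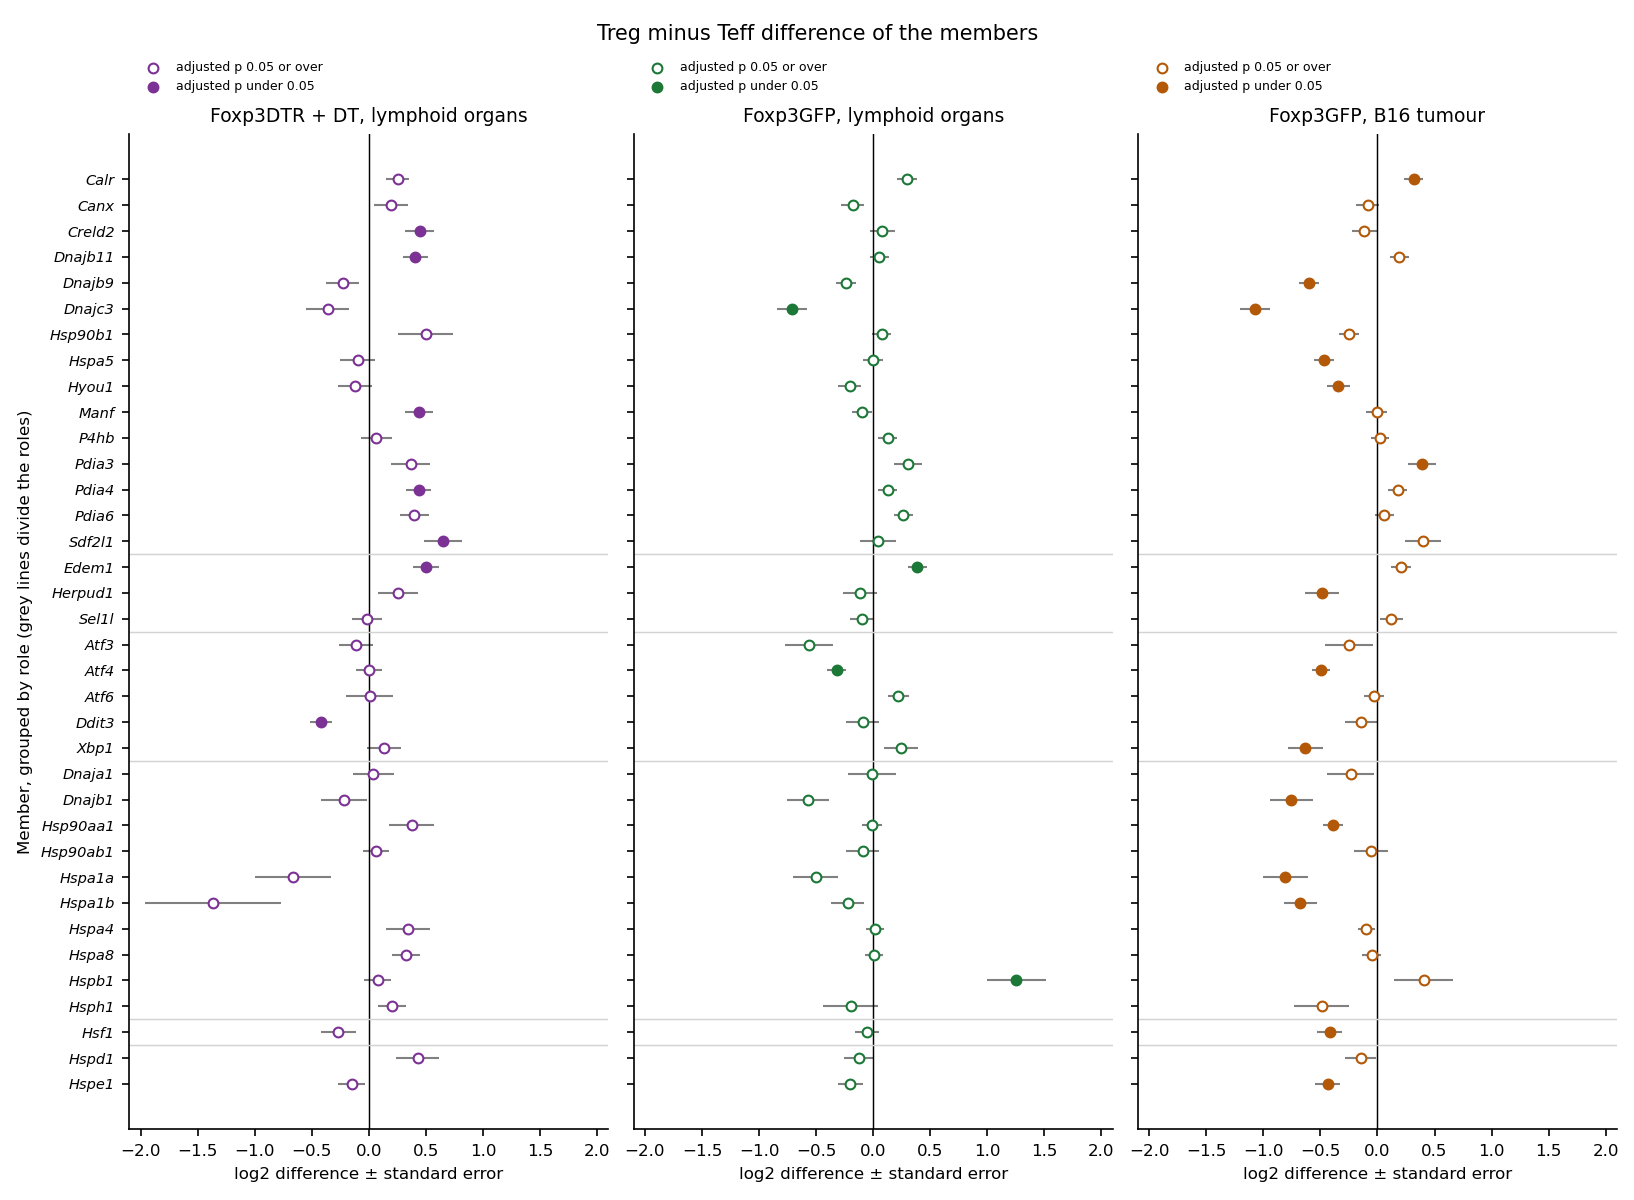
Difference between Treg and Teff arrays (log2, with its standard error) for each of the 36 members in DT-treated Foxp3DTR mice, in lymphoid organs of Foxp3GFP mice and in B16 tumours, with filled points for an adjusted p under 0.05. Filled points lie mostly right of 0 in DT-treated mice (6 of 7) and mostly left of 0 in the tumour (13 of 15).

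Inside B16 tumours, 13 members, among them Dnajc3, Hspa5, Xbp1, Atf4, Hspa1b and Hsf1, were lower in Treg than in Teff arrays, and Calr and Pdia3 were higher. The 13 of 36 called lower by limma (36.1%) and the 2 called higher (5.56%) stood beside 11.5% and 14.0% of all genes, and 21 did not pass the test. All genes include many dim ones, while all 36 members had a mean at or above the median gene. Among such genes, tested alone, 14 of 36 members and 1488 of 6616 genes were lower, and 3 and 1702 were higher. The member median was -0.15, against 0.01 for all genes. By role, 4 of 15 ER chaperones and folding enzymes, 1 of 3 degradation proteins, 2 of 5 transcription factors, 4 of 10 cytosolic heat shock proteins, 1 of 2 chaperonins and Hsf1 were lower.
Dnajc3, called lower in lymphoid organs too, had the most negative difference here, with 9.15 and 8.92 on Treg and 10.28 and 9.94 on Teff arrays (-1.08, SE 0.130, adjusted p = 0.000563, a fold of 2.11 toward Teff). Dnajb9, a BiP co-chaperone that is induced by spliced Xbp1, read 8.91 and 8.89 against 9.56 and 9.44 (-0.60, SE 0.0862, adjusted p = 0.00135). Hspa5 read 11.43 and 11.34 against 11.91 and 11.79 (-0.47, SE 0.0892, adjusted p = 0.00565).
For each of the 3, both Treg arrays lay below both Teff arrays. Atf4 read 10.54 and 10.67 against 11.10 and 11.10 (-0.49, SE 0.0826, adjusted p = 0.00292), with the Teff arrays within 0.01 of each other. These 4 members kept their call in all 10 alternative fits.
Further members called lower among the ER genes were Xbp1 (-0.63, adjusted p = 0.0162), Herpud1, a component of the degradation complex (-0.49, adjusted p = 0.0445), and Hyou1, an exchange factor for BiP (-0.35, adjusted p = 0.0371). Dimmer probe sets of Atf4 and Hyou1, at mean levels of 4.49 and 5.65, gave 0.01 and 0.24 with no call.
The cytosolic members called lower were Hspa1a (-0.81, adjusted p = 0.0169), Dnajb1, the Hsp40 that serves Hsp70 (-0.75, adjusted p = 0.0186), Hspa1b (-0.68, adjusted p = 0.00992) and Hsp90aa1, the inducible Hsp90 (-0.39, adjusted p = 0.0134). Hspa1b read 12.65 and 13.11 on the Treg arrays, below 13.47 and 13.63 on the Teff arrays, and its further probe sets were lower too, at -0.61 and -0.72. Hspe1, the co-chaperonin Hsp10 (-0.44, adjusted p = 0.0213), and Hsf1 (-0.42, adjusted p = 0.0219) were lower as well.
Only Calr and Pdia3, which act together on glycoproteins, were called higher. Calr, calreticulin, read 11.56 and 11.55 against 11.21 and 11.27 (0.32, SE 0.0868, adjusted p = 0.0294). Pdia3, its thiol oxidoreductase partner, read 10.69 and 10.55 against 10.35 and 10.11 (0.39, SE 0.121, adjusted p = 0.0475).
So the ERSE members went different ways in the tumour: Hspa5 and Dnajc3 were lower in Treg and Calr higher, while Hsp90b1, the ER form of Hsp90, gave -0.25 and Creld2 -0.12, with no call.

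Leaving out 1 array changed these counts. Without tumour Treg array 1, 6 members were lower and 1 higher, and without tumour Teff array 2, 7 were lower and none higher; without tumour Treg array 2 none was higher and 10 lower. The calls of Hspa1a, Dnajb1, Hsp90aa1, Hspe1 and Hsf1 ended without Teff array 2 and without Treg array 1, and that of Hspa1b without Teff array 2; those of Xbp1 and Herpud1 ended without Teff array 1 and without Treg array 2. The member called higher without Treg array 1 was neither Calr nor Pdia3.
Plasmacytoid dendritic cell markers, of cells known for a high level of Xbp1 and a large ER, moved with this comparison: 10 of 10 measured were lower in Treg, with a median difference of -2.92. Their mean level was 6.46 and 6.87 on the tumour Treg arrays, where 5 of the 10 lay below the median gene, and 10.15 and 9.35 on tumour Teff arrays 1 and 2, where none did. The Teff array with more of these transcripts was also the one with more Xbp1 (11.27 against 10.79) and Herpud1 (9.51 against 9.05). Dnajc3, Dnajb9, Hspa5 and Hyou1 were higher on that array too. The other way went Hspa1a (12.55 against 12.94), Hspa1b, Dnajb1, Hsp90aa1, Hspe1 and Hsf1, also called lower in Treg, and Atf4 was level. Both CD8 genes were lower in Treg too. Of 9 macrophage and dendritic cell markers 4 were lower, Tyrobp among them, and 1 was higher, with a median difference of 0.15. Of 23 cell cycle genes 17 were higher. The part of these transcripts in the member calls was not tested, and in bulk samples fewer cells of a type and less RNA per cell cannot be told apart.
Of 24 genes listed as immediate early genes, many of which respond within minutes to stimulation or handling, 11 were lower and 2 higher in tumour Treg arrays. Those lower included Klf2 at -2.11, Btg2 at -1.67 and Fosb at -1.41. Not every listed gene need rise on stimulation, and a part of handling was not tested. Of 28 ATF4 and CHOP target genes 9 were higher and 1 lower, although Atf4 RNA was lower: Ddit4, an inhibitor of mTOR signalling, by 2.20, Asns, asparagine synthetase, by 1.51 and Eif4ebp1, a repressor of translation, by 1.36. Of 21 other ER folding enzymes and chaperones 4 were higher and 5 lower, with Ero1a, the oxidase that recharges disulfide isomerases, higher by 1.32 and Txndc5 and Ero1b lower, at -0.90 and -0.82.

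The next comparison set Treg arrays from tumours against Treg arrays from lymphoid organs. The members called higher in the tumour were 2 of 15 ER chaperones and folding enzymes and 2 of 5 transcription factors of the unfolded protein response. Those called lower were Dnajc3, Dnajb1, Hsp90aa1, Hspe1 and Hsf1. limma called 4 members higher (11.1%) and 5 lower (13.9%), beside 11.4% and 12.2% of all genes, so neither share stood far from that of all genes. Among genes with a mean at or above the median gene, tested alone, 6 of 36 members and 1343 of 6616 genes were higher, and 9 and 1645 were lower. The member median was -0.05, and that of all genes -0.03.
Atf6 read 7.24 and 7.24 in the tumour and 6.45 and 6.41 in lymphoid organs (0.81, SE 0.0877, adjusted p = 0.000366). Pdia3 read 10.69 and 10.55 against 9.49 and 9.75 (1.002, SE 0.121, adjusted p = 0.000638). Each separated the tissues by several times the gap between replicates.
Sdf2l1 read 7.36 and 7.30 against 6.44 and 6.64 (0.79, SE 0.156, adjusted p = 0.00773). Atf3, a stress-induced factor, read 7.01 and 7.01 against 5.92 and 6.14 (0.98, SE 0.210, adjusted p = 0.0111), where the lymphoid Treg values lay below the median gene. Dnajc3 was lower, at -0.49 (adjusted p = 0.0268).
Hspe1 read 10.50 and 10.70 in the tumour against 11.62 and 11.39 (-0.90, SE 0.111, adjusted p = 0.000709), and Hspd1, its partner Hsp60 with which it shares the promoter window above, gave -0.33 (adjusted p = 0.12). Hsf1 read 7.13 and 7.26 against 7.97 and 7.75 (-0.66, SE 0.107, adjusted p = 0.00292). Dnajb1 read 9.79 and 10.05 against 10.87 and 10.66 (-0.85, SE 0.186, adjusted p = 0.0124).
Hsp90aa1 read 11.98 and 12.07 against 12.36 and 12.40 (-0.35, SE 0.0881, adjusted p = 0.0211), with a small gap within each tissue. All 10 cytosolic heat shock proteins had a difference below 0, with a median of -0.41, but only Dnajb1 and Hsp90aa1 were called.
Without tumour Treg array 1, 3 members were lower, without lymphoid Treg array 1, 2 were lower and 2 higher, and without lymphoid Treg array 2, 3 were lower; Pdia3, Atf6, Hspe1 and Hsf1 kept their calls in every fit tried.

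**Figure D3:**
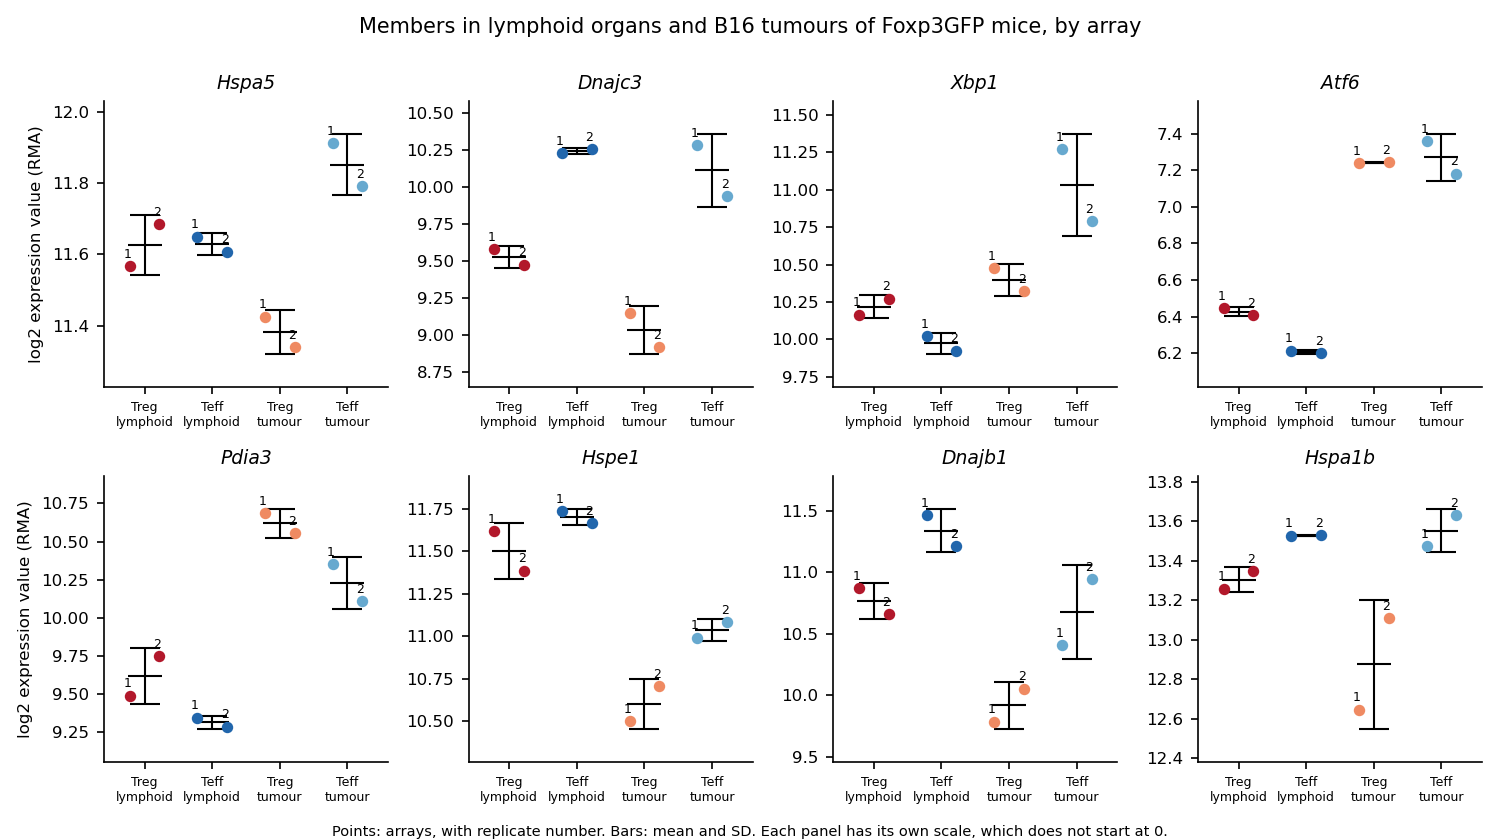
RMA log2 expression values of 8 members on the 8 arrays of Foxp3GFP mice, with 2 arrays a group (points, numbered by replicate) and the mean and SD (bars). Atf6 and Pdia3 are higher and Hspe1 lower on tumour arrays of both labels, while Hspa5 and Hspa1b are lowest on the tumour Treg arrays.

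In Teff arrays the same tissues were compared with other samples, and 6 members were called higher in the tumour (16.7%) and 2 lower (5.56%), beside 7.60% and 8.20% of all genes. Among genes with a mean at or above the median gene, tested alone, 7 of 36 members and 909 of 6616 genes were higher, and 3 and 1317 were lower. The member median was 0.04, against -0.04 for all genes. All calls higher were of ER genes or factors of the unfolded protein response, and both calls lower were of heat shock genes.
Atf6 read 7.36 and 7.18 in the tumour against 6.21 and 6.20 (1.06, SE 0.0877, adjusted p = 0.000248), and Xbp1 11.27 and 10.79 against 10.02 and 9.92 (1.06, SE 0.151, adjusted p = 0.00286). Pdia3 read 10.35 and 10.11 against 9.34 and 9.29 (0.92, SE 0.121, adjusted p = 0.00198). Hsp90b1, with 2 ERSE matches in its window, read 11.35 and 11.24 against 10.74 and 10.72 (0.56, SE 0.0841, adjusted p = 0.00355).
In each of these the tumour arrays lay above the lymphoid arrays by more than they differed among themselves. Creld2 (0.39, adjusted p = 0.0465) and P4hb, protein disulfide isomerase itself (0.30, adjusted p = 0.0404), were also higher.
Hspe1 read 10.99 and 11.08 in the tumour against 11.74 and 11.67 (-0.66, SE 0.111, adjusted p = 0.00586), and Dnajb1 10.40 and 10.94 against 11.46 and 11.21 (-0.66, SE 0.186, adjusted p = 0.0467). The second of these is loose, with tumour replicates 0.54 apart, and its call ended without tumour Teff array 1 and without either lymphoid Teff array, which left 1 member lower. Hspa1a and Hspa1b gave -0.22 and 0.02, with no call.
In both tissue comparisons Atf6 and Pdia3 were called higher and Dnajb1 and Hspe1 lower. These were 2 of 4 and 2 of 6 of the members called higher in Treg and in Teff arrays, and 2 of 5 and 2 of 2 of those called lower. The share of all genes called in both was not counted. The comparisons share no array, but they share 1 estimate of the spread and the same difference in sex of the mice.
Markers of other cells moved with both. Melanoma markers averaged 6.98 to 7.75 on the 4 tumour arrays and 4.68 to 4.85 on the lymphoid arrays, where all 6 lay below the median gene. Stromal and endothelial markers averaged 5.75 to 7.01 and 4.76 to 4.95. Plasmacytoid dendritic cell markers were higher in tumour Teff arrays for 9 of 10. Their part in the member calls was not tested.
Of the wider folding machinery, the cytosolic chaperonin TRiC and its co-chaperone prefoldin had 5 of 13 genes lower in the tumour in Treg and 5 of 13 in Teff arrays and none higher, among them Cct4 (-0.49 in Treg, -0.34 in Teff). Of 15 other mitochondrial chaperones and proteases 4 were lower and 1 higher in Treg, and 3 lower and none higher in Teff, with Clpp, a protease subunit, at -0.63 and -0.64. Among UPR sensors Eif2ak3 was higher in the tumour, by 0.68 in Treg and 1.11 in Teff arrays. Serpinh1, the chaperone of collagen, was higher by 1.78 and 1.93, beside Col1a2 by 2.65 and 3.09 and Col3a1 by 3.85 and 3.999 among the stromal markers.

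**Figure D4:**
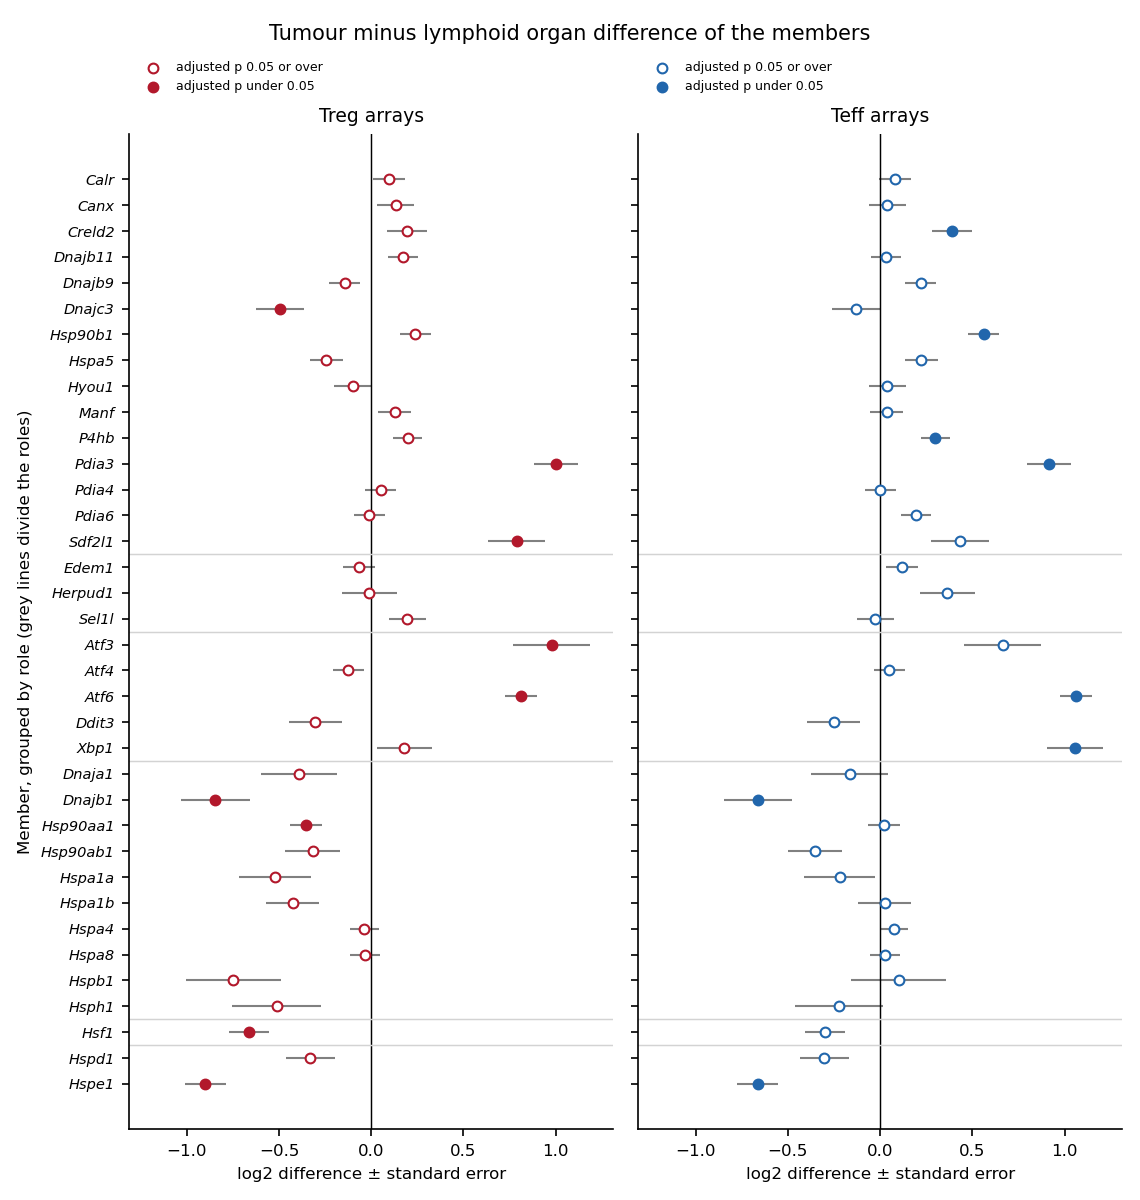
Difference between tumour and lymphoid arrays (log2, with its standard error) for each of the 36 members, in Treg and in Teff arrays, with filled points for an adjusted p under 0.05. Atf6 and Pdia3 are filled right of 0, and Dnajb1 and Hspe1 left of 0, in both panels.

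Whether the Treg to Teff difference itself changed between lymphoid organs and tumour was tested as an interaction, and limma called no member: 0 of 36 higher and 0 of 36 lower, beside 2.83% and 2.98% of all genes. The interaction of 7 members had an unadjusted p under 0.05. Other settings added calls below 0: Xbp1 without tumour Teff array 2 (-1.12, adjusted p = 0.00685), Xbp1 and Hspa5 when only genes at or above the median gene were tested (adjusted p = 0.0239 and 0.0281), and Xbp1, Hspa5, Hsp90aa1 and Hsp90b1 with a robust trend in the spread (adjusted p = 0.030, 0.00749, 0.0179 and 0.0497). The closest was Xbp1, whose Treg to Teff difference was 0.25 in lymphoid organs and -0.63 in the tumour (interaction -0.88, SE 0.213, adjusted p = 0.0542). Hspa5 followed, with 0.00 and -0.47 (interaction -0.47, SE 0.126, adjusted p = 0.0789). Hspb1, called in lymphoid organs alone, had an interaction of -0.85 (adjusted p = 0.26), so its difference was not shown to differ between the tissues. For 26 of the 36 members the interaction was below 0, with a median of -0.18 against 0.01 for all genes.
Among related genes 6 of 10 plasmacytoid dendritic cell markers and 6 of 24 immediate early genes had a called interaction below 0, and 3 of 28 ATF4 and CHOP target genes had one above 0, the highest that of Ddit4 at 1.96. Ero1a, at 1.34, and Wfs1, at -0.87, were called too.

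Within the table of 8 arrays the heat shock genes varied between replicates together. In both tumour groups replicate 2 was above replicate 1 for all 10 cytosolic heat shock proteins, both chaperonins and Hsf1, with a median gap of 0.38 in Treg and 0.29 in Teff arrays for the cytosolic proteins. In the lymphoid groups replicate 2 was below replicate 1 for 7 and 8 of the 10. Tumour replicate 2 also had the higher level of Col3a1 (8.53 against 6.73 in Treg, 9.05 against 6.33 in Teff) and the lower level of Dct, a melanoma marker (9.76 against 10.23, 9.12 against 10.31). The 15 ER chaperones and folding enzymes did not share that direction, being lower in replicate 2 for 11 in tumour Treg and 13 in tumour Teff. The part of these stromal and melanoma levels in the heat shock values was not tested.
Hspb1 was an exception to the order of the groups: its levels in lymphoid Treg (7.89 and 7.85) stood above those of tumour Treg (6.73 and 7.52), lymphoid Teff (6.58 and 6.66) and tumour Teff (6.42 and 7.02).

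**Figure D5:**
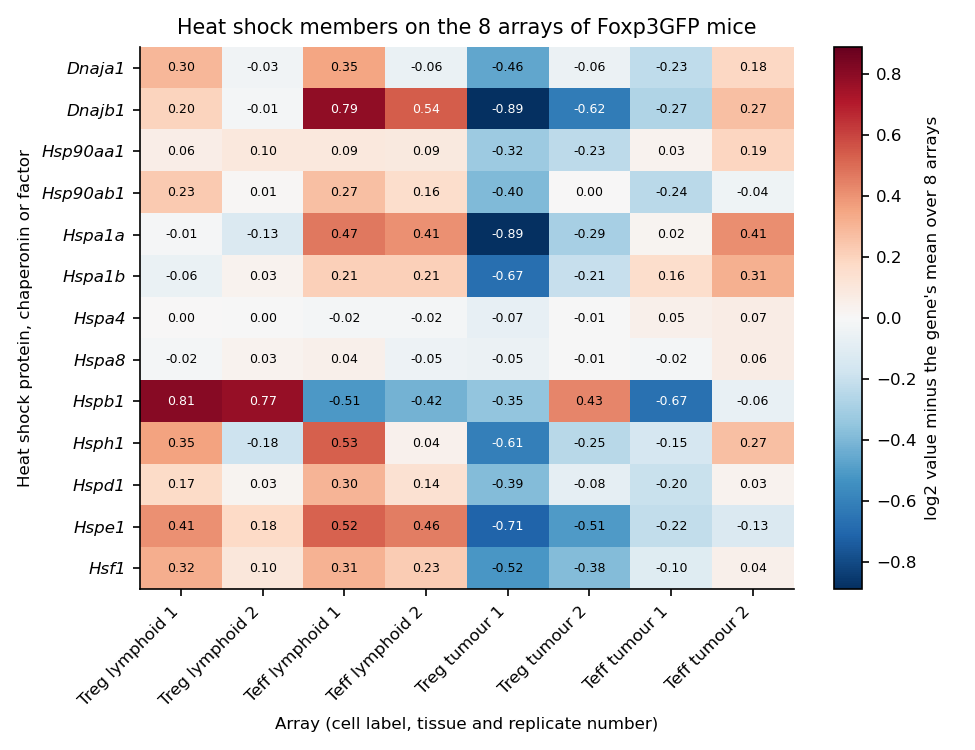
Log2 value of each heat shock protein, chaperonin and Hsf1 minus its own mean over the 8 arrays of Foxp3GFP mice (colour and printed number), by array. Tumour Treg array 1 has the lowest value for 12 of the 13 genes, and lymphoid Teff array 1 the highest for 7.

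Over the 5 comparisons of groups, 27 of the 36 members were called at least once, in 43 calls. The share of all genes called at least once was not counted. All comparisons but that in DT-treated mice reuse the same 8 arrays, so repeated calls of a member are not independent. Dnajc3, Dnajb1 and Hspe1 were called lower 3 times each and Pdia3 higher 3 times. The 9 members never called were Canx, Pdia6, Sel1l, Dnaja1, Hsp90ab1, Hspa4, Hspa8, Hspd1 and Hsph1. They include the constitutive cytosolic chaperones Hspa8 (Hsc70), which read 13.33 to 13.45 on the 8 arrays of Foxp3GFP mice, and Hsp90ab1. They also include Sel1l, the scaffold of the degradation ligase, and Canx, the membrane-bound relative of Calr. Hspa4, an exchange factor for Hsp70, had a difference of -0.10 between tumour Treg and Teff arrays, but 2 dimmer probe sets gave 0.51 and 0.69 with adjusted p = 0.0155 and 0.00196, so its direction rests on the probe set.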

How the data were processed

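Expression was measured on 18 Affymetrix arrays of sorted mouse CD4 T cells. The values are log2 expression values that the authors made with RMA, per the submitters' processing notes, which give no version; they were deposited as one table of 10 arrays and one of 8, normalized separately, and are used as deposited. RMA evens out the distribution of values between arrays, so a shift shared by most genes would not be seen. For each gene, the brightest probe set by mean value was used, among those with 1 gene symbol. Groups followed the labels. Differences were fitted with limma 3.58.1 in R 4.3.3 (lmFit and eBayes), each table on its own, the 4 groups of the table of 8 arrays together, and p-values were adjusted over all genes by the Benjamini-Hochberg method, with 0.05 as the threshold. Values of further probe sets of a gene come from a like fit over all named probe sets of the table, with p-values adjusted over these. The fit was tested on simulated data.

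Arrays give no read depth, so their number limits the precision. A further deposited table held 5 columns equal to arrays of DT-treated mice within 5e-09 on the log2 scale; 16 columns of per-sample values were not used. Values of each array are given for the 4 members with the smallest adjusted p in each direction and for members called in both lymphoid settings; up to 3 genes are named of each further list, and others, such as Hspa5 and Hspa1b, were named after their values were seen. The members and lists were chosen with earlier results of these data known. Alternatives were a replicate block, another probe set rule, a filter on low values, centring, a robust trend, only the arrays compared, and arrays left out. Same-numbered Treg and Teff arrays of DT-treated mice correlated at 0.0404 to 0.502 in their deviations, under 0.1 in 1 of 5 pairs. Arrays with different numbers correlated at -0.382 to 0.305. The labels give no pairs, so the main fit did not take numbers as pairs. The calls of Hspa1a and Hspa1b in DT-treated mice depend on that choice. Tables were read with Python 3.11.15, pandas 2.3.3 and numpy 2.4.6, and figures drawn with matplotlib 3.10.9.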

Additional observations from a re-analysis of the deposited data

Results flagged for a closer look

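Among the groups of 5 arrays in DT-treated mice, 4 of 72 groups of values (5.56%) held 1 array far from the others, where chance gives about 1 in 20. Calr read 12.01 on Treg array 2, with the other Treg arrays at 11.80 to 11.82. Xbp1 read 10.22 on Treg array 4, with the others at 10.88 to 10.92, and Edem1 read 9.41 on the same array, with the others at 9.69 to 9.73. On this array the plasma cell genes Jchain and Mzb1 read 9.60 and 7.80, against at most 4.50 and 5.14 on the other Treg arrays. Ighm read 12.62 against at most 12.11. The plasma cell markers Sdc1, Tnfrsf17 and Derl3 read 4.36, 2.60 and 5.76, against at most 4.53, 2.46 and 5.74. Markers of other cells were high there too: Hba-a1 (erythroid) read 8.37 against at most 3.89, and Ms4a1 (B cell) 6.12 against at most 3.44. Jchain also read 7.41 and 7.92 on Teff arrays 3 and 4. The part of transcripts of other cells was not tested. Hspa5 read 10.81 on Teff array 5, with the others at 11.39 to 11.59.

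For 3 members the Treg and Teff arrays did not overlap in either tissue, and the direction was opposite. With 2 arrays a group such separation was common. Of the 36 members, 12 were separated upward and 12 downward in lymphoid organs, and 7 and 17 in the tumour. The shares of all genes separated in each tissue, or with such a reversal, were not counted, so these counts cannot be set against them. Xbp1 had a difference of 0.25 in lymphoid organs and -0.63 in the tumour, Hsp90b1 0.07 and -0.25, and Hspa4 0.02 and -0.10. As an interaction these gave adjusted p = 0.0542, 0.18 and 0.65 with limma, so none was called.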

How the results depend on the processing

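Of the 43 calls of members, 13 kept their direction and their side of the threshold under every alternative run, and 30 were lost under at least 1. Leaving out each array in turn gave 1 to 7 members higher and 1 lower in DT-treated mice, 0 higher and 0 to 1 lower in lymphoid organs, and 0 to 2 higher and 6 to 10 lower in the tumour. It gave 2 to 4 higher and 2 to 7 lower between tissues in Treg arrays, 4 to 6 higher and 1 to 2 lower in Teff arrays, and 0 higher and 0 to 1 lower for the interaction. With the replicate block, 10 members were higher and 3 lower in DT-treated mice, 1 was higher in the tumour, 1 was lower between tissues in Teff arrays and 1 was lower for the interaction. In DT-treated mice the block added Hspa1a (-0.67, adjusted p = 0.0201) and Hspa1b (-1.36, adjusted p = 0.00187) to the members lower, and Hsp90b1, Pdia6, Hsp90aa1 and Hspd1 to those higher, and the interaction it added was that of Xbp1 (adjusted p = 0.0498). The numbers pair no samples by the labels, and not every array of DT-treated mice correlated best with its own number. With the mean of all probe sets, the counts were 0 lower in DT-treated mice, 4 higher in the tumour and 1 lower between tissues in Teff arrays, and Hspa4 reversed to 0.37 in the tumour, the mean then including probe sets of the opposite sign. A robust trend gave 0 lower in DT-treated mice, 4 higher in lymphoid organs, 1 lower between tissues in Teff arrays and 4 lower for the interaction. Testing only genes at or above the median gene gave 4 higher and 4 lower in lymphoid organs, 9 lower between tissues in Treg arrays and 2 lower for the interaction. Centring gave 1 higher in the tumour; fitting only the arrays compared gave 0 higher in the tumour and 1 lower between tissues in Teff arrays. Without the 3 arrays that stand apart, 3 were lower in DT-treated mice. Unless given here, the cause was not tested. Atf3, Hspa1a and Atf6 lay below the median gene in at least 1 group, where changes are least well measured.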

Other observations

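Of the other probe sets of the members, 16 of 47 had the opposite sign to the one used in DT-treated mice, as did 3 of 39 in lymphoid organs and 9 of 39 between Treg and Teff arrays in the tumour. Between tissues the opposite sign was seen in 7 of 39 in Treg and 12 of 39 in Teff arrays. The median range of a member over the 5 arrays of a group in DT-treated mice was 0.661 in Teff and 0.532 in Treg arrays.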
